A study of Equus caballus with 8 samples.

Results

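The 10 genes described here carry and restrain the bone morphogenetic protein (BMP) signal in mesenchymal stem cells that were grown from horse bone marrow (BM-MSCs): the ligands BMP2, BMP4 and BMP6, the secreted antagonist GREM1, the pseudoreceptor BAMBI, the intracellular SMAD6 and SMAD9, and the targets ID1, ID2 and ID3. They were chosen by gene symbol, and all 10 were found among the 15266 named genes of the count table. The libraries were made from poly(A)-selected RNA of cultures grown from the sternal marrow of 4 horses, D, J, L and W, adult Thoroughbreds or Thoroughbred crosses. Marrow of each horse was divided between an untreated culture and one given 1 ng/ml human recombinant TGF-β2 from isolation up to passage 3 or 4 by the labels, or for 3 passages by the study's methods, so each group held 1 culture per horse (n = 4). Both groups shared the same medium, low-glucose DMEM with fetal bovine serum, antibiotics and basic fibroblast growth factor. The comparison asks how these genes differ between the treated and untreated cells of the same animals.

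BMPs and TGF-βs belong to the same ligand superfamily and signal through receptor kinases that phosphorylate SMAD proteins. BMP receptors act mainly through SMAD1, SMAD5 and SMAD9, while TGF-β receptors act mainly through SMAD2 and SMAD3, and both branches share SMAD4. The inhibitor of differentiation (ID) genes are classical direct targets of the BMP branch, and their proteins bind E proteins and keep them from pairing with tissue-specific transcription factors. In marrow stromal cells BMPs are best known for driving bone and cartilage formation.

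The libraries held between 39184554 and 57228675 counted reads, and 1 read was worth 0.673 to 1.20 normalized counts, so 3 reads corresponded to 2.02 to 3.60 normalized counts. Values below are the deposited normalized counts, which are scaled between libraries but not for gene length, so levels are compared between libraries and not between genes. Log2 changes are on the log2(normalized count + 1) scale, as treated minus untreated. Each gene was tested with limma with horse as a block, with Benjamini-Hochberg adjustment over the 14907 genes that passed the low-value filter, a filter that all 10 members passed. A gene passed the test at an adjusted p under 0.05, and it was called when its log2 fold change was also beyond 1 in either direction. The study applied these thresholds to a DESeq2 Wald test, not to limma. Marrow stromal markers were present in every library, with a summed level of 210437 to 421377 in untreated and 200938 to 287280 in treated cultures over 7 of 8 listed genes. THY1 (−2.21), CXCL12 (−5.57) and PRRX1 (−1.19) of that list were called lower in treated cells, and PDGFRB (−0.71, limma adjusted p = 0.0367) fell short of the fold threshold. ITGB1, which encodes CD29, rose by 0.91 in 4 of 4 horses (limma adjusted p = 0.0159) with every treated library above every untreated one, while CD44 (0.43, adjusted p = 0.135) and NT5E (−0.08, 0.735) did not pass. The summed haematopoietic markers lay at 188 to 464 in untreated and 147 to 282 in treated cultures over 6 of 8 listed genes. CD3E, which encodes a T cell receptor subunit, was at 0 in 6 of 8 libraries but reached 112 in the untreated J culture and 16.2 in the untreated W culture. Endothelial markers were represented by CDH5 and KDR of 8 listed, with a sum of 7.10 to 26.3 in untreated and 30.0 to 55.7 in treated cultures.

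ID2 and SMAD6 fell in TGF-β2-treated BM-MSCs, and no member rose past the limma test. ID2 was lower by 1.48 ± 0.16 (SE) on the log2 scale and SMAD6 by 0.94 ± 0.10, each in 4 of 4 horses. Of the 10 members, 0 were called higher against 6.83% of all genes tested, and 1, ID2, was called lower against 7.31%. At an adjusted p under 0.05 whatever the fold change, 0 members were higher against 15.7% of genes tested and 2 were lower against 15.3%. The treated libraries lay entirely below the untreated ones for 2 members, where 13.9% of genes tested did so, and entirely above them for 0, where 13.9% also did so. By sign alone, 2 members were higher in every horse against a background of 26.3%, and 3 were lower in every horse against 25.6%. Each count of lower members was within 1 gene of its background and each count of higher members was under it, so with the deposited size factors the members as a list did not stand out by count. Their median log2 fold change was −0.74, beside 0.01 over all genes tested, with 2 positive and 8 negative estimates. At an unadjusted p under 0.05, 2 members were higher (BMP2 and BMP6) and 4 lower (SMAD6, ID2, ID1 and GREM1) in limma. No share of all genes tested was computed by sign of the estimate or at an unadjusted p. Such counts, here and for the lists below, are therefore a description and set no direction. For calls of higher expression, edgeR gave 0 members, DESeq2 without horse gave 0, and DESeq2 with horse gave 1, BMP2. In bulk RNA a lower value cannot be told apart as fewer cells expressing a gene or less of its RNA per cell.

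**Figure D1:**
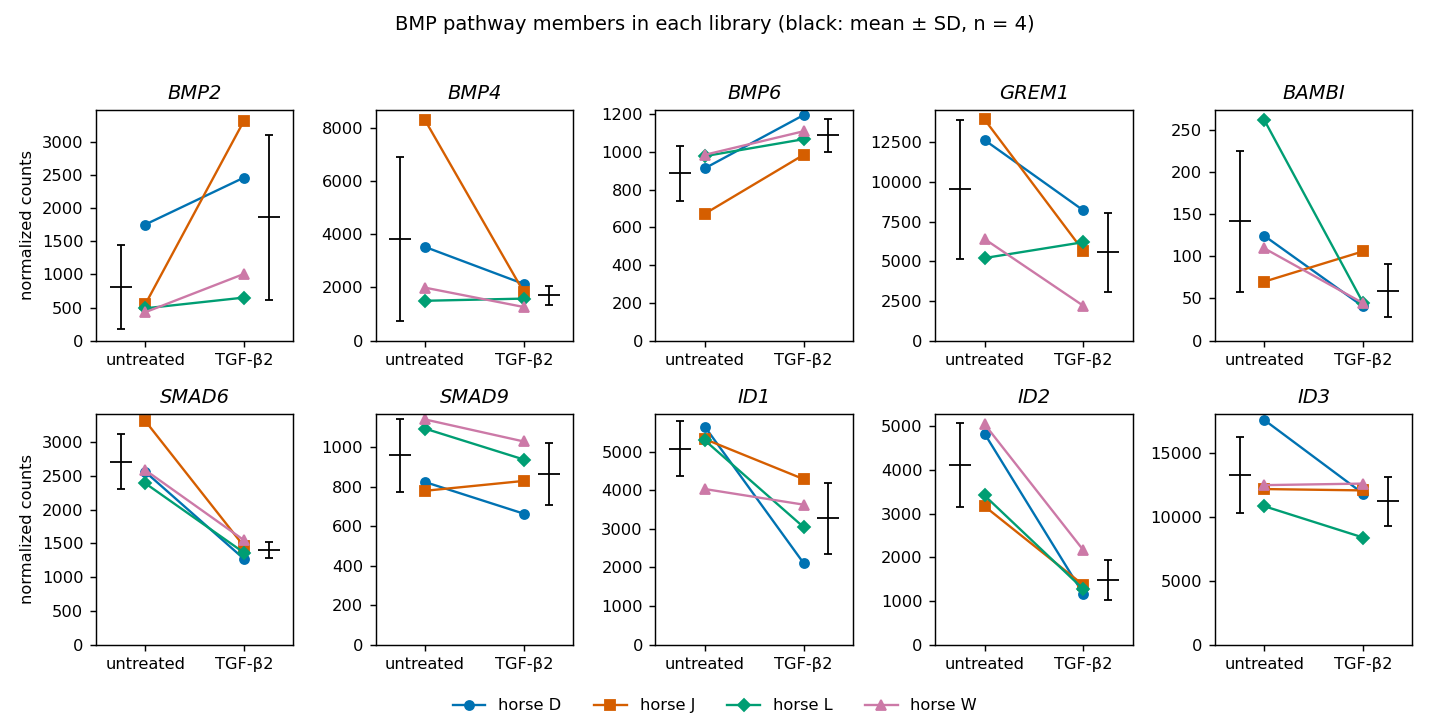
Normalized counts (y axes from 0, a separate scale for each gene) of the 10 members in untreated and TGF-β2-treated cultures, with a line joining the libraries of each horse and black bars for the mean ± SD (n = 4). SMAD6 and ID2 are the genes whose treated libraries all lie below the untreated ones, and the lines of BMP2, BMP4, GREM1 and BAMBI differ most in steepness between horses.

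BMP2, an osteogenic ligand, was measured at 1756, 549, 488 and 429 normalized counts in the untreated cultures of horses D, J, L and W, and at 2467, 3328, 651 and 1009 in their treated cultures. Every horse had more BMP2 in its treated culture, but untreated D exceeded treated L and W, so the groups overlapped. The mean was 806 ± 635 (SD, n = 4) untreated and 1864 ± 1253 treated. The log2 change was 0.49 in D, 2.60 in J, 0.41 in L and 1.23 in W, a spread of 1.01 (SD) around a fitted 1.18 ± 0.38 (SE) with a 95% interval of 0.24 to 2.13. BMP2 did not pass in limma (adjusted p = 0.0646, or 0.202 without the horse block). It was called in DESeq2 with horse (log2 fold change 1.16, adjusted p = 0.00937), and with horse J left out the limma estimate dropped to 0.71 with an adjusted p of 0.0356.

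BMP4, a close relative of BMP2 that acts through the same receptors, had 3524, 8293, 1497 and 1991 normalized counts in untreated D, J, L and W, and 2129.7, 1820.0, 1579.6 and 1263 in the treated cultures. The untreated J culture was the highest of all 8, while the treated cultures lay close together and within the untreated range apart from W. Untreated cultures averaged 3826 ± 3100.2 (SD, n = 4) and treated cultures 1698 ± 367. Horse J had a log2 change of −2.19, D and W had −0.73 and −0.66, and L had 0.08. The fitted change of −0.87 ± 0.35 (SE; 95% interval −1.75 to 0.01) did not pass in limma (adjusted p = 0.115). Without horse J it was −0.44, with an adjusted p of 0.111 in limma. In DESeq2 with horse the adjusted p was 0.0474 at a log2 fold change of −0.86.

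BMP6, a ligand of a separate BMP subgroup, varied least of the 3 ligands, with 914, 673, 978 and 985 normalized counts untreated and 1196, 985, 1068 and 1110.1 treated in D, J, L and W. Treated J was level with untreated W, and the other treated cultures were above every untreated one. The mean went from 887 ± 147 (SD, n = 4) to 1089.7 ± 87.8, and the log2 changes by horse ranged from 0.13 in L to 0.55 in J. The fitted change was 0.31 ± 0.11 (SE; 95% interval 0.04 to 0.58) with an adjusted p of 0.0840 in limma. When libraries were scaled to equal totals instead, the estimate was −0.0026, so the sign of BMP6 depended on the scaling.

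GREM1 encodes gremlin 1, a secreted protein that binds BMP2 and BMP4 and keeps them from their receptors. It was measured at 12652, 13947, 5206 and 6407 normalized counts in untreated D, J, L and W, and at 8214, 5657, 6207 and 2195 in the treated cultures. Treated D, J and L lay inside the untreated range, and only treated W lay below it. The group means were 9553 ± 4386 untreated and 5568 ± 2503 treated (SD, n = 4). GREM1 was lower in D, J and W by log2 changes of −0.62, −1.30 and −1.55 and higher in L by 0.25, and the fitted −0.80 ± 0.30 (SE; 95% interval −1.56 to −0.05) had an adjusted p of 0.0968 in limma. Without horse L it was −1.16 and passed (adjusted p = 0.0257), and in DESeq2 with horse the adjusted p was 0.0331.

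BAMBI encodes a membrane protein resembling a type I receptor without a kinase, and it dampens both BMP and TGF-β receptor signalling. Its untreated values were 124, 70.0, 262 and 109.6 normalized counts in D, J, L and W, and its treated values were 40.5, 106, 44.8 and 44.5. Treated D, L and W lay together below all untreated cultures, and treated J lay above untreated J. The mean was 141 ± 83.5 untreated and 58.9 ± 31.4 treated (SD, n = 4). Horses D, L and W had log2 changes of −1.60, −2.52 and −1.28, and J had 0.59. The fitted change of −1.20 ± 0.50 (SE; 95% interval −2.46 to 0.05) did not pass in limma (adjusted p = 0.125). Without horse J it was −1.80 and was called (adjusted p = 0.0103), and DESeq2 without horse also called it (adjusted p = 0.0434).

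SMAD6, an inhibitory SMAD that is itself induced by BMP signalling and preferentially blocks the BMP branch, fell in every horse. Untreated D, J, L and W cultures held 2559, 3313, 2389.6 and 2585 normalized counts and their treated cultures 1267, 1454, 1360.0 and 1545. The lowest untreated culture was well above the highest treated culture, and the groups did not overlap. The mean fell from 2712 ± 410.2 (SD, n = 4) to 1407 ± 119.7, and the fitted level was 52.2% of the untreated one. Log2 changes ranged only from −1.19 in J to −0.74 in W (SD 0.20). The fitted −0.94 ± 0.10 (SE; 95% interval −1.20 to −0.68) passed the test (limma adjusted p = 0.00390) and stayed short of the fold threshold for a call. It was just past that threshold without horse W, at −1.005 (adjusted p = 0.0257).

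SMAD9, a receptor-activated SMAD of the BMP branch, had 824, 779.6, 1095 and 1141 normalized counts untreated and 663, 829.7, 938 and 1029.6 treated in D, J, L and W. The groups overlapped across most of their range, and horses L and W were above D and J under both conditions. The log2 changes lay between −0.31 in D and 0.09 in J, and the fitted −0.15 ± 0.11 (SE) had a 95% interval of −0.41 to 0.11 (limma adjusted p = 0.327).

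ID2 fell most among the 3 ID members and was the only member called. It stood at 4832, 3168, 3414 and 5048 normalized counts in untreated D, J, L and W and at 1158, 1363, 1268 and 2163 in the treated cultures. Even treated W, the highest treated culture, was below untreated J, the lowest untreated culture. The mean fell from 4115 ± 961 (SD, n = 4) to 1488 ± 458, and the fitted level was 35.8% of the untreated one. Log2 changes were −2.06 in D, −1.22 in J, −1.43 in L and −1.22 in W. The fitted −1.48 ± 0.16 (SE; 95% interval −1.88 to −1.08) had an adjusted p of 0.0038 in limma with horse as a block and 0.00434 without the block. ID2 was called under all 12 other settings of the fit tried and in all 4 fits that left out a horse.

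ID1, an ID gene widely used as a readout of BMP activity, was measured at 5651, 5328, 5296 and 4032 normalized counts in untreated D, J, L and W and at 2112, 4289.8, 3045 and 3627 in the treated cultures. All 4 horses had less ID1 when treated, but treated J was above untreated W, so the groups overlapped. The mean was 5077 ± 715 untreated and 3268 ± 924 treated (SD, n = 4). The change was −1.42 in D and −0.80 in L but only −0.31 in J and −0.15 in W. The fitted −0.67 ± 0.22 (SE; 95% interval −1.22 to −0.12) did not pass in limma (adjusted p = 0.0683 with and 0.0573 without the block). It passed in DESeq2 with horse (adjusted p = 0.0233) and without horse (0.0303), short of the fold threshold in both.

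ID3, which shares the dimerising helix-loop-helix of its family, had 17603, 12187, 10843 and 12494 normalized counts untreated and 11835, 12082, 8388 and 12616 treated in D, J, L and W. Horses J and W were nearly level between conditions, with log2 changes of −0.01 and 0.01, while D and L had −0.57 and −0.37. The means of 13282 ± 2969 and 11229.9 ± 1923 (SD, n = 4) differed by less than the untreated spread. The fitted −0.24 ± 0.13 (SE; 95% interval −0.56 to 0.09) did not pass (limma adjusted p = 0.214).

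**Figure D2:**
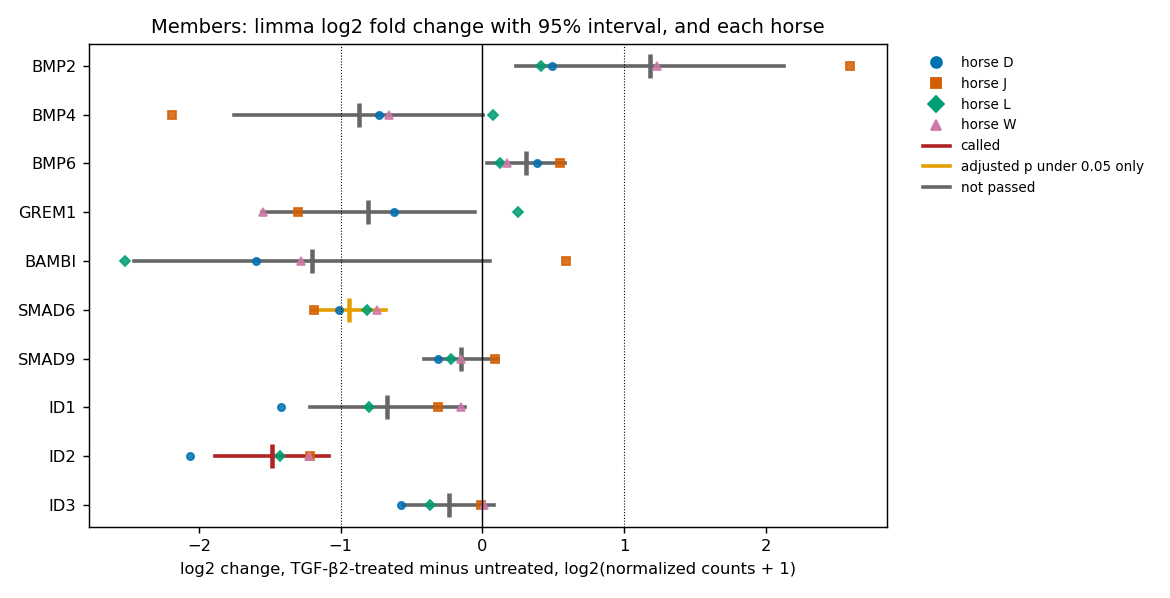
Log2 change of each member (x axis, treated minus untreated), with points for the 4 horses, a vertical mark for the limma estimate, a bar for its 95% interval and dotted lines at log2 changes of −1 and 1. ID2 alone has its estimate beyond the dotted line with an adjusted p under 0.05, SMAD6 lies at −0.94, and horse J sits apart from the other horses for BMP2, BMP4 and BAMBI.

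Changes of pairs of members within a horse do not depend on how libraries are scaled to each other. The 5 pairs below were chosen after their values were seen, and with 4 horses the exact two-sided sign-flip permutation test cannot go below 0.125. ID2 had a more negative log2 change than ID3 in all 4 horses, with a difference of −1.25 ± 0.18 (SD; exact permutation p = 0.125, Benjamini-Hochberg 0.156 over the 5 pairs). The difference between ID2 and ID1 was −0.81 ± 0.21, also negative in 4 of 4 horses and also at the smallest exact p. Between ID1 and ID3 it was −0.44 ± 0.29, again negative in 4 of 4. The order from ID2 through ID1 to ID3 was therefore the same in every horse, although the steps varied in size. BMP2 had a higher change than BMP4 in 4 of 4 horses, by 1.22 in D, 4.78 in J, 0.34 in L and 1.89 in W (mean 2.06 ± 1.93, SD; exact permutation p = 0.125). The changes of BMP4 and its antagonist GREM1 differed by −0.07 ± 0.73, in the range of −0.89 to 0.89, with an exact permutation p of 0.75.

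Horse J was the most extreme horse for several members, although among 4 horses 1 is always the most extreme. It had the largest positive change of BMP2 and BMP6 and the most negative change of BMP4 and SMAD6. Its change was the only positive one for BAMBI and SMAD9. For BMP6 (0.55 in J, 0.39 in D) and SMAD6 (−1.19 in J, −1.01 in D) horse D was close. Horse D had the most negative change of ID1 (−1.42), ID2 (−2.06), ID3 (−0.57) and SMAD9 (−0.31). The untreated J culture also had the highest BMP4, GREM1 and SMAD6 of the 8 libraries. In the same culture PTPRC, the pan-leukocyte marker, was at 109.7 normalized counts against 3.21 in treated J, and CD3E was at 112 against 0. Other haematopoietic markers of the list were lower in untreated J than in untreated L: ITGB2 (71.4 against 109), CSF1R (1.35 against 147) and SPI1 (1.35 against 52.8). The summed list was at 454 in untreated J and 464 in untreated L. Whether the cells behind these markers had a part in the J values was not tested. Without horse J, ID2 (−1.57) and SMAD6 (−0.86) still passed in limma, with adjusted p of 0.00363 and 0.00359. In the other untreated cultures PTPRC was at 1.74 in D, 41.5 in L and 26.4 in W.

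**Figure D3:**
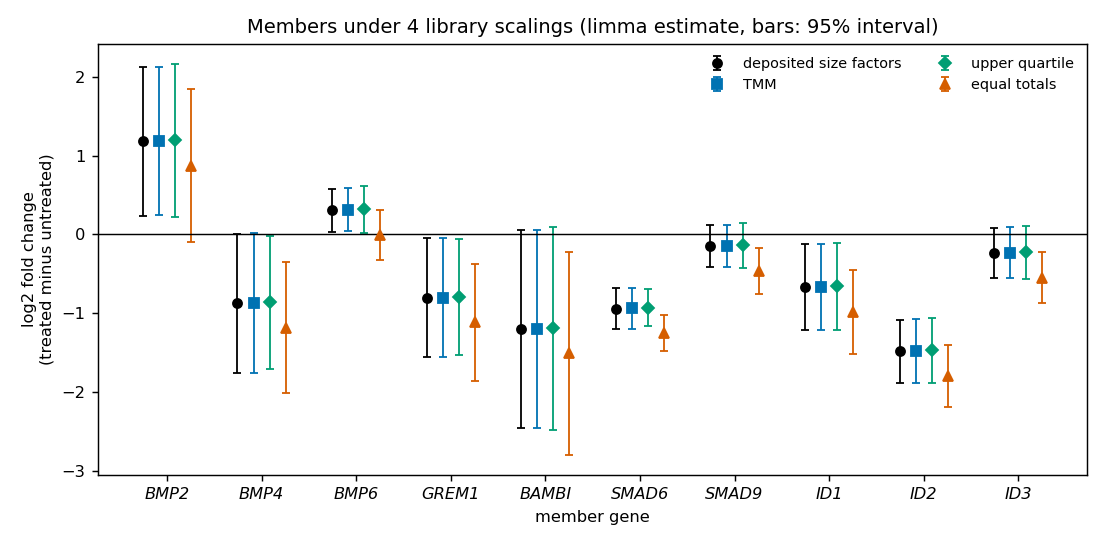
Limma log2 fold change (y axis, treated minus untreated, bars 95% intervals) of each member under the deposited size factors, TMM, upper quartile and equal library totals. The first 3 scalings nearly coincide, and equal totals place every member lower, BMP6 at −0.0026.

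Scaling to equal totals shifted the median of all genes tested to −0.30, with 698 genes called higher and 1839 lower, 27.5% of calls being higher against 48.3% with the deposited size factors. Under that scaling 4 of 10 members were called lower, BMP4, GREM1, SMAD6 and ID2, against 12.3% of genes tested. With the deposited size factors it was 1 of 10 against 7.31%, so the count beside its background depended on the scaling. ID1, ID3 and SMAD9 passed under equal totals without reaching the fold threshold. Relative to the shifted median the members kept nearly the same distances, for example −1.79 for ID2 and −1.25 for SMAD6 against a median of −0.30. TMM and upper quartile scaling left the called members at 0 higher and 1 lower.

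Around the members, 39 of 54 genes on lists of the wider BMP pathway were analysed here. Of these, 4 were called higher (10.3%, against 6.83% of all genes tested) and 7 lower (17.9%, against 7.31%), and their median log2 fold change was −0.01. The 7 called lower include CHRDL2, which passed the low-value filter only through its untreated libraries. At an adjusted p under 0.05 whatever the fold change, 5 of the 39 were higher, where 15.7% of all genes tested were. Another 10 were lower, against 15.3%, and 24 did not pass. The lists were chosen with earlier results of these data known and support no direction on their own.

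**Figure D4:**
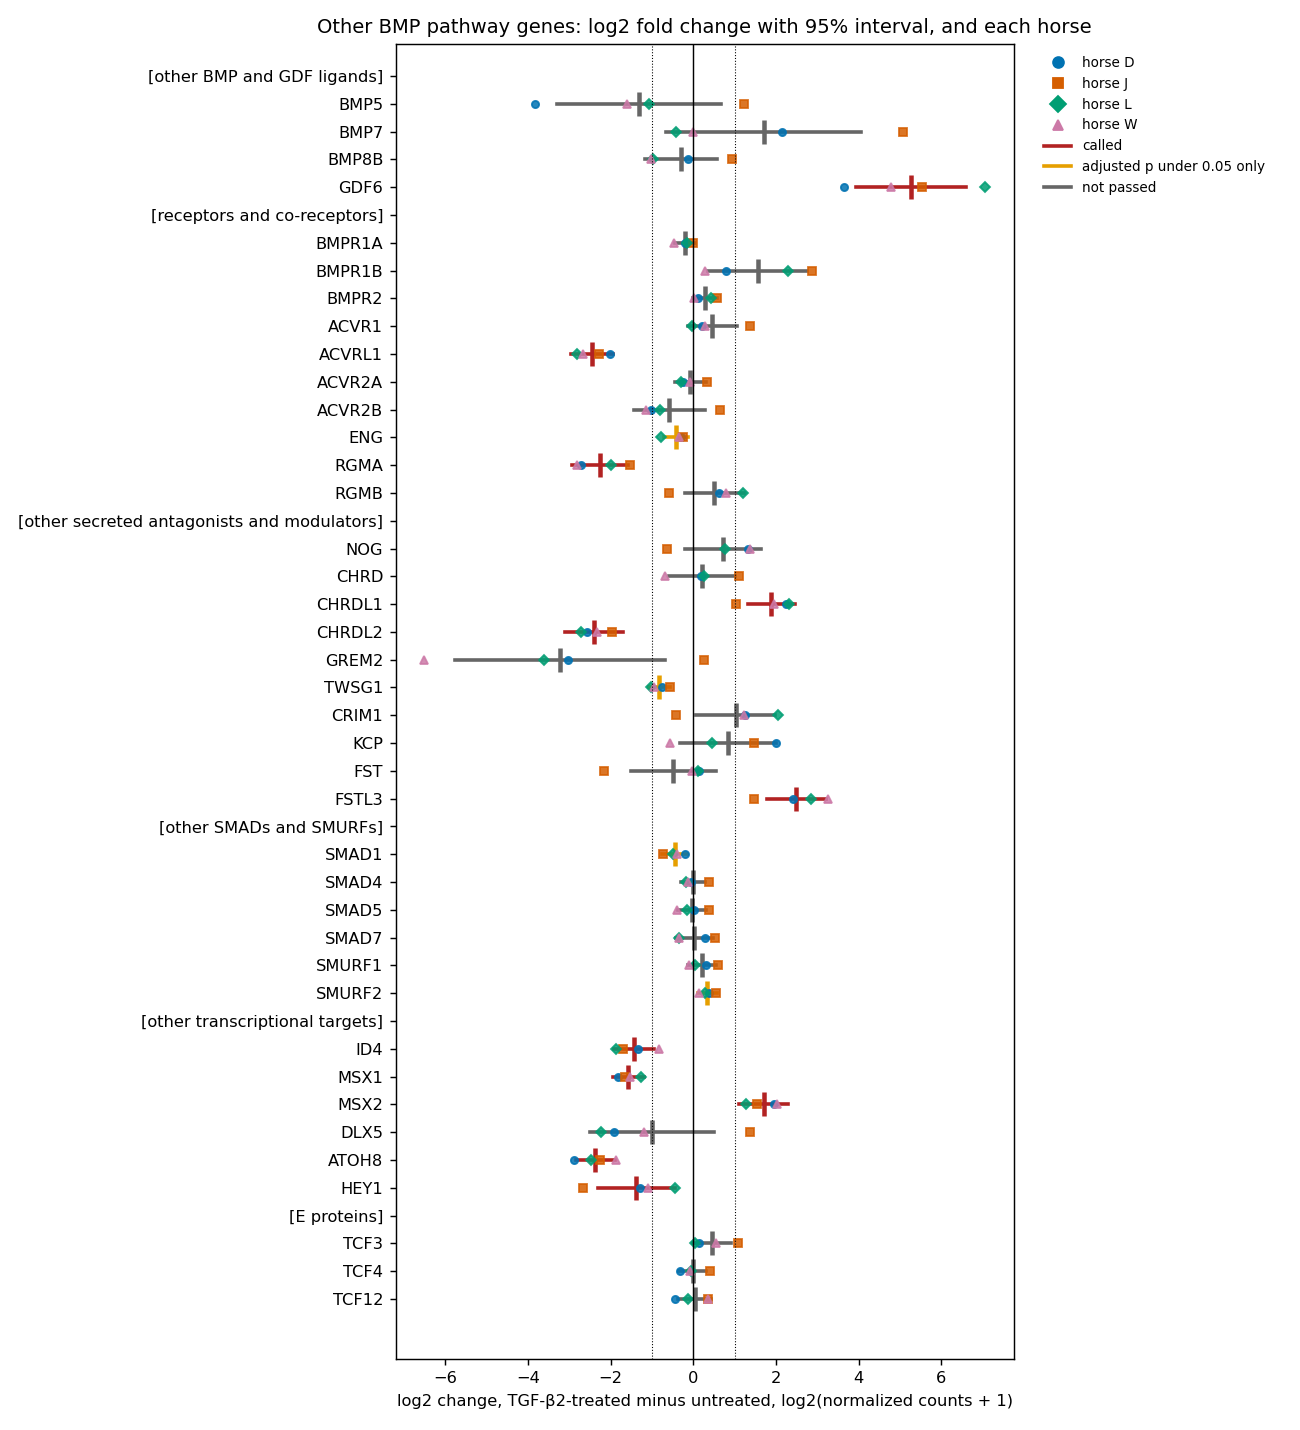
Log2 change (x axis, treated minus untreated) of 39 further BMP pathway genes grouped by role, with points for the 4 horses, a vertical mark for the limma estimate and a bar for its 95% interval. GDF6 has the largest increase at 5.26, and 4 of 6 listed transcriptional targets were called lower, against 7.31% of all genes tested.

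Among 4 other ligands, 1 was called higher, against 6.83% of all genes tested. GDF6, a BMP-family ligand known for joint and skeletal patterning, was at 213, 52.5, 42.4 and 91.3 normalized counts in untreated D, J, L and W and at 2662, 2501, 5839 and 2560.2 in treated cultures. Even the lowest treated culture was far above the highest untreated one. The fitted change was 5.26 ± 0.54 (SE), or 38.4-fold (limma adjusted p = 0.00324). It ranged from 4.66 without L to 5.80 without D and was called in all 4 fits that left out a horse. BMP5 (−1.32, adjusted p = 0.256), BMP7 (1.70, 0.222) and BMP8B (−0.30, 0.554) did not pass in limma. BMP5 was called without J (−2.16, limma adjusted p = 0.0436) and dropped to −0.48 without D (0.661). BMP7 was at 0 reads in both W cultures and at 672 normalized counts in treated J, and its estimate was 0.57 without J (limma adjusted p = 0.486) and 3.16 in DESeq2 without horse (0.243). BMP8B may share reads with its close paralog BMP8A.

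Among 10 receptors and co-receptors, 0 were called higher and 2 lower in limma, against 6.83% and 7.31% of all genes tested. At an unadjusted p under 0.05, 1 was higher, BMPR1B (1.56, limma adjusted p = 0.0582), at 8 to 188 reads. BMPR1B was also the 1 receptor called higher by DESeq2 with horse, with 0 called higher by DESeq2 without horse and 0 by edgeR. ACVRL1, a type I receptor known mainly from endothelium that binds BMP9 and BMP10, averaged 293 ± 119 normalized counts in untreated and 52.9 ± 23.8 in treated cultures (SD, n = 4) and fell by 2.45 on the log2 scale (SE 0.20, limma adjusted p = 0.00205). RGMA, a BMP co-receptor, fell from 222 ± 49.6 to 46.0 ± 13.1 (−2.26 ± 0.27, adjusted p = 0.00480 in limma). For both, every treated culture was below every untreated one. The endothelial marker KDR was called higher in the same libraries (2.27, limma adjusted p = 0.0109) at 1.01 to 40.7 normalized counts. CDH5, the other endothelial marker analysed, did not pass (0.52, limma adjusted p = 0.264) and was lower in treated L (−0.18). Any part of endothelial cells in the receptor values was not tested. ENG, the co-receptor endoglin, passed with a smaller change of −0.42 (limma adjusted p = 0.0409, or 0.0695 without the block and 0.0959 to 0.126 without D, L or W). The type II receptor BMPR2 (0.28, adjusted p = 0.120) and the type I receptor ACVR1 (0.46, 0.191) did not pass in limma.

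Among 10 other secreted antagonists and modulators, 2 were called higher (against 6.83% of all genes tested) and 1 lower (against 7.31%). FSTL3, a follistatin-like protein that binds activins and related ligands, rose from 3275 ± 1813 to 16594 ± 454 normalized counts (SD, n = 4; log2 change 2.49 ± 0.29, SE; limma adjusted p = 0.00436). CHRDL1, a chordin-like BMP antagonist, rose from 4929 ± 1839 to 19823 ± 9525 (1.89 ± 0.23, adjusted p = 0.00472 in limma), with treated J at 6916 inside the untreated range. Its relative CHRDL2 fell from 25.4 ± 5.15 to 4.24 ± 2.25 (−2.40 ± 0.28, limma adjusted p = 0.00455), resting on as few as 2 reads in a treated library. CHRDL2 passed the low-value filter only through its untreated libraries (20.7 to 32.3 normalized counts, against 2.30 to 7.49 treated). A gene kept in that way could come out only as lower, so its call is a description. With the filter at 50 normalized counts CHRDL2 was not tested. TWSG1, which modulates chordin and BMP complexes, fell by 0.83 on the log2 scale without reaching the fold threshold (limma adjusted p = 0.00496). CRIM1, a transmembrane BMP-binding protein (1.02, adjusted p = 0.0979), and FST, the activin-binding follistatin (−0.49, 0.411), did not pass in limma. Without horse J, CRIM1 was called (1.505, limma adjusted p = 0.00505), without L it was 0.68 (0.256), and FST was at 0.07.

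In limma 6.83% of all genes tested were called higher and 7.31% lower. Of 6 other SMADs and SMURF ubiquitin ligases, 0 were called in either direction by limma, edgeR or DESeq2 with or without horse. At an unadjusted p under 0.05, 1 was higher and 1 lower in limma, and these also passed after adjustment: SMURF2 rose by 0.34 (adjusted p = 0.0443) and SMAD1 fell by 0.45 on the log2 scale (adjusted p = 0.0387, or 0.0934 without the block). SMURF2 did not pass with a horse left out (limma adjusted p = 0.0640 to 0.160), under upper quartile scaling (0.0516), without a variance trend (0.0813) or under equal totals, where its change was 0.03 (0.868). SMAD4, the shared partner of both branches, was at 0.00 (adjusted p = 0.998) and SMAD5 at −0.03 (0.891), with 95% intervals of −0.29 to 0.29 and −0.37 to 0.31 in limma.

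Of 6 other transcriptional targets, 1 was called higher (against 6.83% of all genes tested) and 4 lower (against 7.31%). The list was chosen with earlier results of these data known. ID4, the remaining ID gene, was at 1168 ± 279 normalized counts untreated and 428 ± 81.6 treated (SD, n = 4) and fell in every horse, with log2 changes of −1.34, −1.71, −1.88 and −0.83 in D, J, L and W. Its fitted change of −1.44 ± 0.19 (SE; limma adjusted p = 0.00619) was close in size to that of ID2. ATOH8, a basic helix-loop-helix factor, fell from 681 ± 107 to 137 ± 53.4 (−2.37 ± 0.19, limma adjusted p = 0.00202). The homeobox gene MSX1 fell from 444 ± 127 to 146 ± 21.2 (−1.57 ± 0.15, limma adjusted p = 0.00284). MSX2, its family member, rose from 18.6 ± 7.58 to 62.2 ± 19.0 (1.70 ± 0.24, limma adjusted p = 0.00705). HEY1, which is also a Notch target, fell by 1.37 on the log2 scale (SE 0.37, limma adjusted p = 0.0405), a call that held in 1 of 4 fits leaving out a horse. It did not pass without D (adjusted p = 0.130) or W (0.123), was short of the fold threshold without J (−0.94), and was called without L (limma). Without a variance trend HEY1 did not pass either (limma adjusted p = 0.0563). The osteogenic homeobox gene DLX5 did not pass (−0.99, limma adjusted p = 0.256), with J at 1.37 and the other horses negative, and was called without J (−1.78, adjusted p = 0.00435) but at −0.58 without L (0.567).

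None of the 3 E proteins that ID proteins bind was called by limma, edgeR or DESeq2. Over all genes tested, limma called 6.83% higher and 7.31% lower. Of the 3 E proteins, 0 reached an unadjusted p under 0.05 in limma. The estimates were 0.45 for TCF3 (adjusted p = 0.120), −0.01 for TCF4 (0.951) and 0.03 for TCF12 (0.890).

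The 2 genes nearest to each member by Pearson's r of log2 values over the 8 libraries are given as a description, since the points share horses, treatment and library. For SMAD6 they were POLDIP2 (0.995) and LIMA1 (0.994), and for ID2 they were ECH1 (0.992) and TMEM143 (0.990). BMP4 lay nearest to EFHD2 (0.990) and NR2F2 (0.979), BMP2 to TTYH3 (0.981) and LFNG (0.975), and BMP6 to RANBP17 (0.980) and UCK1 (0.977). The nearest genes were C13H16orf54 (0.983) and PHF19 (0.973) for GREM1, and B4GALT1 (0.976) and RABGAP1L (0.970) for BAMBI. SMAD9 lay nearest to PNCK (0.988) and DGCR2 (0.977), ID1 to CDKN1A (0.966) and PLD1 (0.961), and ID3 to PRKAR2B (0.975) and LOC102147405 (0.970). No member was among the 2 nearest genes of another. Between members, the most negative value was −0.87 for BMP4 with BMP6, over the same 8 libraries.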

How the data were processed

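Poly(A)-selected RNA of 8 BM-MSC cultures, untreated and TGF-β2-treated from each of 4 horses, was sequenced by the authors. Per the paper's methods and the submitters' processing notes, reads were trimmed with Trimmomatic 0.36, mapped to EquCab 3.0 with STAR 2.5.2b and counted per gene with featureCounts of Subread 1.5.2. The annotation and strand setting are not given in the sources used here, so overlapping and near-identical genes may share reads. The authors deposited 1 table of size-factor normalized counts (a signal with unit 1 read per library divided by a DESeq2 size factor), with 15267 rows, 1 of which has no gene name, held 0.0281 to 0.0531% of reads and was left out. Whole reads were recovered from the steps of the deposited values at a tolerance of 0.01 for every value. The totals were 40044240 to 57228675 reads in untreated and 39184554 to 46634539 in treated libraries.

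Horse letters in the labels paired the libraries. Deviations from the group mean correlated at 0.386 to 0.609 within a horse and at −0.400 to 0.116 between horses. Subtracting the group mean by itself pushes the between-horse values below 0 when the within-horse values are above 0. The 14907 genes reaching 10 normalized counts in 4 or more libraries were fitted with limma 3.58.1 (R 4.3.3, eBayes with trend) on log2(normalized count + 1) with horse as a block. Calls needed a Benjamini-Hochberg adjusted p under 0.05 and a log2 fold change beyond 1. The members, lists and markers were chosen with earlier results of these data known. Genes named beside the members were every wider-list gene that was called, up to 3 uncalled genes of highest mean per list, and the 2 nearest genes by correlation. SMAD1, 1 of the genes past the adjusted p, was named after its values were seen, as were BMPR1B and the markers given beside results. Alternatives were no block, pseudocounts of 0.5 and 5, no filter and a filter of 50, equal-total, TMM and upper quartile scaling, no variance trend, an adjusted p under 0.01, no fold threshold, DESeq2 1.42.0 and edgeR 4.0.16 on the recovered reads, and each horse left out. The fits were tested on simulated data. No sequences or coordinates are printed, since no reference of the build was used here.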

Additional observations from a re-analysis of the deposited data

Results flagged for a closer look

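In 8 of 111 groups of 4 values examined, the highest or lowest library lay so far from the others that its gap exceeded the 95% critical value of Dixon's test, and chance gives about 1 in 20. Of these, 4 were at horse J, 2 at L, 1 at D and 1 at W.

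Among the members, untreated BMP2 in horse D was at 1756 normalized counts beside 429 to 549 in the other untreated cultures, and treated BAMBI in horse J was at 106 beside 40.5 to 44.8. Among the wider pathway genes, treated GDF6 in L was at 5839 (others 2501 to 2662), treated BMP7 in J at 672 (0 to 42.5), treated BMPR2 in L at 6676 (4472 to 4705) and treated TCF12 in W at 4932 (5630 to 5720). Untreated FST in J was at 4977 (370.3 to 1109), and its log2 change in J was −2.15 beside −0.02 to 0.13 in the other horses. What set these libraries apart was not tested.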

How the results depend on the processing

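The count of members called higher was 0 in every fit apart from DESeq2 with horse, which gave 1 (BMP2). The count called lower was 1 (ID2), against 7.31% of all genes tested. It became 4 with equal library totals (against 12.3%) and 2 in DESeq2 without the replicate block (BAMBI and ID2, against 7.49%). With no fold threshold it was 2 (ID2 and SMAD6, against 15.3%). Leaving out a horse gave 1 to 2 called lower, beside a share of all genes tested that also moved. ID2 was called alone without D (against 3.92%) and with BAMBI without J (against 8.71%). It was called with GREM1 without L (against 6.30%) and with SMAD6 without W (against 3.58%). Dropping the horse block in limma left these counts at 0 and 1, and changed the side of the threshold for ENG (adjusted p = 0.0695) and SMAD1 (0.0934), and for no other named pathway gene. It lowered the calls over all genes to 834 higher and 875 lower, from 1018 and 1090. On the recovered reads, edgeR with horse called 990 genes higher and 1069 lower, DESeq2 with horse 1112 and 1231, and DESeq2 without horse 935 and 1116. Calls over all genes came to 547 and 533 without W and to 588 and 585 without D.

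The sign of the log2 change turned with equal totals for BMP6 (−0.00259), BMPR2 (−0.0279), SMAD4 (−0.31) and TCF12 (−0.28). It turned in DESeq2 without the block for BMP8B (0.24), SMAD4 (−0.0333) and TCF12 (−0.0174), in DESeq2 with horse for SMAD4 (−0.00232) and in edgeR for SMAD4 (−0.000456). Leaving out a horse gave ranges across 0 for FST (−0.69 to 0.0697), SMAD4 (−0.12 to 0.0632), SMAD5 (−0.17 to 0.0891), TCF12 (−0.0727 to 0.19), TCF4 (−0.15 to 0.0904) and BMP4 minus GREM1 (−0.39 to 0.20). The causes were not tested. Wider pathway counts ran from 3 to 6 higher and from 6 to 10 lower.

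With 4 horses the exact tests of pairs cannot pass 0.05, and BMP2, BMP4, GREM1, BAMBI and ID1 had 95% intervals over 1 log2 unit wide, so their changes are bounded only loosely. CHRDL2 and BMP7 rest on few reads in some libraries.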
